A study of Mus musculus with 22 samples.

Results

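The constant chains of immunoglobulins and the joining chain were followed through kidneys of 3 groups of mice. The 10 genes were taken by symbol from the 55487 genes of the count table: the heavy chains of IgM (Ighm), IgG (Ighg1, Ighg2b, Ighg2c and Ighg3) and IgA (Igha), the light chains kappa (Igkc) and lambda (Iglc1 and Iglc2), and the joining chain (Jchain). All 10 passed the filter on low counts, in a test of 14683 genes. All animals were male, wild-type C57BL/6JRj mice, with 1 kidney library per animal. The young group was 4 months of age (n = 6) and the old group 21 months (n = 8), neither with a supplement. The other group of old mice, also 21 months of age (n = 8), ate food that held nicotinamide, the amide form of vitamin B3, for 14 weeks at 1.6 g per kg of food, which came to 200 mg per kg of body weight a day. Reads came from the 3′ ends of polyadenylated RNA of a piece of whole kidney, so the cells that made these transcripts were not isolated.

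An antibody is built of a pair of heavy and a pair of light chains, and the constant part of the heavy chain sets its class. B cells first make IgM and can switch to IgG or IgA by joining the same variable part to another constant gene. Plasma cells, the end stage of the B cell line, secrete antibody in bulk, and most constant-chain RNA in a tissue usually comes from them. The joining chain links IgM and IgA units into polymers, which epithelia can carry across to the lumen. The 6 heavy chain genes lie on the minus strand of mouse chromosome 12, Igkc on the plus strand of chromosome 6, Iglc1 and Iglc2 on the minus strand of chromosome 16 and Jchain on the minus strand of chromosome 5. Their identifiers are ENSMUSG00000076617 (Ighm), ENSMUSG00000076614 (Ighg1), ENSMUSG00000076613 (Ighg2b), ENSMUSG00000076612 (Ighg2c), ENSMUSG00000076615 (Ighg3), ENSMUSG00000095079 (Igha), ENSMUSG00000076609 (Igkc), ENSMUSG00000105906 (Iglc1), ENSMUSG00000076937 (Iglc2) and ENSMUSG00000067149 (Jchain).

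Some of these genes are near copies, and the assay reads only their 3′ ends, so the ends decide how well a read can be given to 1 gene. The last 60 coding bases of the 4 IgG heavy chains are shown 5′ to 3′ as GENCODE M21 gives them for the mouse build GRCm38, in the transcript of the secreted form, with the 29 positions at which the 4 genes are not all alike in capitals.
Ighg1: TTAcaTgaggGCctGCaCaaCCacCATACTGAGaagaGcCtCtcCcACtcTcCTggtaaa
Ighg2b: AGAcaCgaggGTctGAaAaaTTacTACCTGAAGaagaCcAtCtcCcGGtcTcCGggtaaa
Ighg2c: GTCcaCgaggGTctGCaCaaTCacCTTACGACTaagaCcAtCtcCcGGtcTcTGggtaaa
Ighg3: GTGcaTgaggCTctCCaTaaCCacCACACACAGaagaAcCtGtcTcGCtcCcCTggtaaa
Over the last 300 bases of the transcripts, Ighg2b and Ighg2c were identical at 82.8% of alignment positions, with a longest shared run of 44 bases. The other pairs of IgG genes were identical at 60.2% to 71.6%. A gap in the alignment counts as a difference in these percentages. The counts of Ighg2b and Ighg2c are therefore the less certain among the IgG genes. The same stretch of the lambda chains is shown because another lambda gene, Iglc3, almost repeats Iglc2, with the 13 differing positions in capitals.
Iglc1: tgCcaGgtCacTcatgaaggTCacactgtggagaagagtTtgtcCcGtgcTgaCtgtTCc
Iglc2: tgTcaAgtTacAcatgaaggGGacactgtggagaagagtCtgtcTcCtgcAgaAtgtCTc
Iglc3: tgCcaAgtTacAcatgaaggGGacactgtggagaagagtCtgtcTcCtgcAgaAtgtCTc
Iglc2 and Iglc3 shared 59 of these 60 bases. Over the last 300 bases they were identical at 92.1% of alignment positions, gaps again counted as differences, with a longest shared run of 62 bases. Reads of both may therefore have been divided between them or left uncounted. Iglc1 was identical to Iglc2 at 61.1% of such positions. The secreted ends of IgM and IgA are shown for their last codon but 1, in capitals, which encodes the cysteine through which these classes are known to form polymers with the joining chain.
Ighm: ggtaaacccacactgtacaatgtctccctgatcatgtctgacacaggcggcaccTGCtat
Igha: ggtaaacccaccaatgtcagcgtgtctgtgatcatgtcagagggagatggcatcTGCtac

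The libraries held from 3351065 to 8319865 gene counts. Levels are given as CPM, the counts per 1e+06 counts of the library total after TMM scaling; the 3′ assay reads a transcript at its end, so levels were not divided by transcript length. In an earlier account of these data 4 libraries stood apart or were shallow: young replicate 6 (the lowest depth), old replicate 7, and nicotinamide replicates 1 and 7. Nicotinamide replicate 1 held the lowest sum of kidney markers (14949 CPM) and the highest of adipocyte markers (808 CPM). Old replicate 7 held the lowest sum of kidney markers among old kidneys (18668 CPM), and nicotinamide replicate 7 the highest sum of T cell markers (230 CPM). Kidney markers such as Lrp2, Umod and Aqp2 summed to between 25848 and 30040 CPM in young kidneys and to between 18668 and 25118 CPM in old ones, so every old kidney lay below the lowest young one, and to between 14949 and 29206 CPM with nicotinamide. Taken singly, 7 of the 12 kidney markers had a positive log2 fold change in old against young, with a median of 0.07. In edgeR 1 was higher at an adjusted p below 0.05 and 0 lower, beside 3.90% and 3.15% of all genes tested. In limma-voom 0 passed either way, and without these 4 libraries 1 was higher and 2 lower. The lower sum is therefore not a fall of each marker, and its part in the levels of the members was not tested. Calls that changed without these 4 libraries are given beside the result or with its list.

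**Figure D1:**
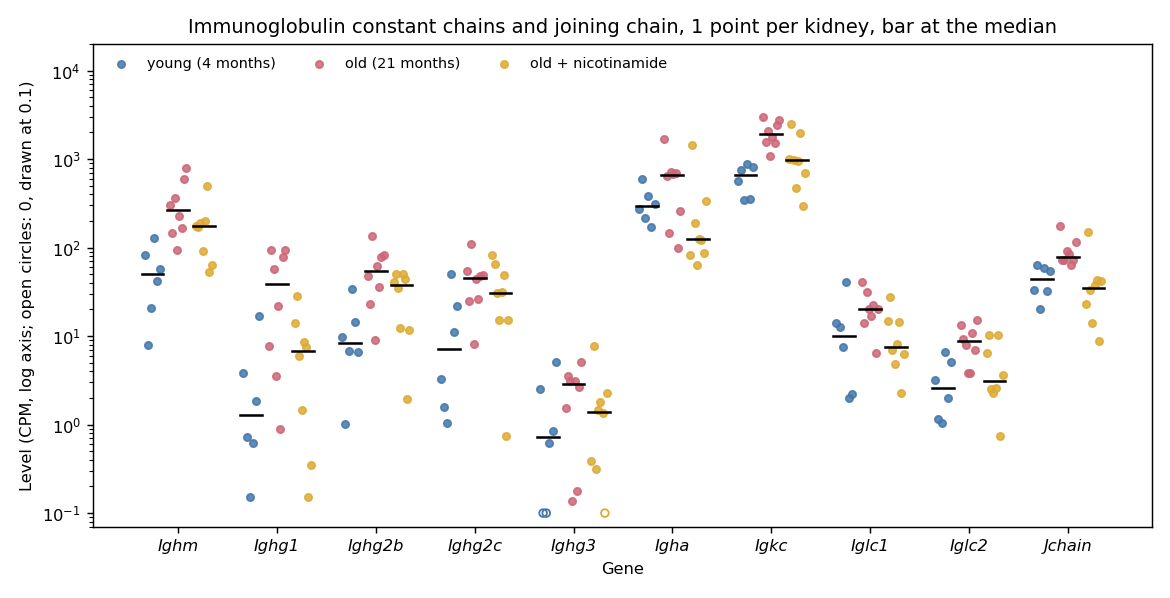
Level of each gene in each kidney in CPM on a log axis, with 1 point per kidney, a black bar at the group's median, and open circles for a count of 0. For Igkc the 8 old kidneys (1088 to 3030 CPM) all lie above the 6 young ones (341 to 870 CPM), while for Igha 5 old kidneys lie above the young range (170 to 591 CPM) and 2 below it.

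The 10 genes together made up 0.0598% to 0.150% of the gene counts in young kidneys (median 0.110%), 0.198% to 0.523% in old (median 0.291%) and 0.0468% to 0.442% in nicotinamide kidneys (median 0.141%). In CPM the sum ran from 614 to 1571 in young kidneys with a median of 1149, from 2036 to 5370 in old with a median of 2943, and from 450 to 4471 with nicotinamide with a median of 1435. All 8 old kidneys lay above the highest young kidney. Of the nicotinamide kidneys 5 lay within the young range, replicates 2 and 6 above it and replicate 7 below it, and 6 of 8 lay below the lowest old kidney. The ratio of the medians was 2.56 for old to young and 2.05 for old to nicotinamide. Igkc was the most abundant of the 10 genes in the median of each group, followed by Igha and Ighm in young and old kidneys and by Ighm and Igha in nicotinamide kidneys. Ighg3 was the least abundant in each group. A difference in the number of antibody-producing cells and one in antibody RNA per cell cannot be told apart in such tissue.

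Young and old mice without the supplement were compared to see how antibody transcripts differ with age. Igkc, Ighm and Ighg1 were higher in old kidneys past the threshold (edgeR, adjusted p below 0.05), at 3.27-fold, 5.96-fold and 14.0-fold. These are 3 of 10 genes, against 7.04% of all genes tested in either direction, 3.90% upward and 3.15% downward. All 10 fold changes were positive, with a median log2 fold change of 1.58, beside 0.01 over all genes tested. Igkc alone of the 10 did not overlap between young and old kidneys, and 2.64% of all genes tested did not either. The members were chosen with these results known, so the counts describe them and are no test of the group.

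Ighm encodes the heavy chain of IgM, the class made first in a B cell's life. Its level was 7.98, 49.7 and 127 CPM in the lowest, median and highest young kidney, 94.9, 264 and 797 CPM in old, and 53.6, 175 and 497 CPM in nicotinamide kidneys. Of the old kidneys 7 of 8 lay above the highest young kidney, and replicate 4 lay within the young range. Ighm rose with age by 2.58 on the log2 scale (SE 0.64, 95% interval 1.23 to 3.92, edgeR adjusted p = 0.0196). Without the 4 libraries that stood apart the difference was 2.42 and missed the threshold (adjusted p = 0.0558). With nicotinamide, 5 of 8 kidneys lay above the highest young one.

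Ighg1 encodes the heavy chain of IgG1, a subclass of switched B cells. Young kidneys held 0.150, 1.29 and 16.9 CPM (lowest, median and highest), old kidneys 0.896, 39.2 and 94.9 CPM, and nicotinamide kidneys 0.150, 6.71 and 28.4 CPM. The old kidneys spread over a 106-fold range, with 5 of 8 above the highest young kidney and 3 within the young range. Ighg1 rose with age by 3.81 on the log2 scale (SE 1.13, 95% interval 1.45 to 6.18, edgeR adjusted p = 0.0466), close to the threshold. The call was lost in 17 of 31 alternatives, with the log2 fold change at 3.49 to 4.98 throughout and the highest adjusted p at 0.251 (limma-voom). In 13 of these a library alone was left out, namely young replicate 1, 2, 3, 4 or 5, old replicate 2, 3, 5, 7 or 8, or nicotinamide replicate 3, 5 or 6, with adjusted p between 0.0532 and 0.111. Without young replicate 6, the highest young kidney, the difference was 4.98 (adjusted p = 0.0250).

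The other 3 IgG subclasses did not pass. Ighg2b, the heavy chain of IgG2b, had 1.02, 8.27 and 34 CPM in the lowest, median and highest young kidney, 9.04, 54.9 and 134 CPM in old, and 1.95, 38.3 and 49.9 CPM with nicotinamide. Its difference with age was 2.27 (SE 0.70, 95% interval 0.82 to 3.72, edgeR adjusted p = 0.0547). In 6 of the 8 old kidneys it lay above the highest young one. It passed without young replicate 4 (adjusted p = 0.0307), old replicate 4 (0.0313) or nicotinamide replicate 7 (0.0318). Ighg2b also passed in DESeq2 (adjusted p = 0.00993) and in edgeR with non-robust dispersions (0.00747). Ighg2c, which C57BL/6 mice carry in place of Ighg2a, had 1.05, 7.20 and 50.6 CPM in young, 8.21, 45.6 and 111 CPM in old, and 0.751, 30.9 and 82.0 CPM in nicotinamide kidneys. The ranges of Ighg2c overlapped more, with 2 of 8 old kidneys above the highest young one, and its difference was 1.64 (SE 0.80, 95% interval −0.03 to 3.31, adjusted p = 0.251). Ighg3, the heavy chain of IgG3, stayed at or below 7.77 CPM in every kidney. It had no count in young replicates 2 and 3 and in nicotinamide replicate 7, where 0 counts allow up to 0.435, 0.450 and 0.451 CPM, and its difference with age was 0.79 (95% interval −1.08 to 2.67, adjusted p = 0.692).

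Igha encodes the heavy chain of IgA, the class of mucosal surfaces. It had 170, 293 and 591 CPM in the lowest, median and highest young kidney, 98.4, 669 and 1698 CPM in old, and 63.4, 125 and 1442 CPM with nicotinamide. The old kidneys lay on both sides of the young: replicate 1 held 1698 CPM and 4 others 650 to 715 CPM, above the highest young kidney, replicates 3 and 7 held 148 and 98.4 CPM, below the lowest young kidney, and replicate 8 alone lay within the young range at 260 CPM. The difference with age was 0.93 (SE 0.72, 95% interval −0.58 to 2.45, edgeR adjusted p = 0.521). The old kidneys low in Igha were the 3 highest in Ighm, at 361, 590 and 797 CPM.

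Igkc, the kappa light chain, which most mouse antibodies carry, had 341, 660 and 870 CPM in the lowest, median and highest young kidney. Old kidneys held 1088, 1907 and 3030 CPM and nicotinamide kidneys 295, 966 and 2519 CPM. Igkc rose with age by 1.71 (SE 0.42, 95% interval 0.84 to 2.58, edgeR adjusted p = 0.0168). The call held in all 31 alternatives, at 1.57 to 1.85 with a highest adjusted p of 0.0406. The lambda chains were far lower. Iglc1 had 2.01, 10.1 and 41.2 CPM in young, 6.47, 20.3 and 40.6 CPM in old, and 2.25, 7.56 and 27.9 CPM in nicotinamide kidneys, and its ranges overlapped (0.66 with age, 95% interval −0.57 to 1.88, adjusted p = 0.588). Iglc2 had 1.05, 2.58 and 6.58 CPM in young, 3.83, 8.70 and 15.3 CPM in old, and 0.751, 3.13 and 10.3 CPM in nicotinamide kidneys. Its difference with age was 1.52 (SE 0.51, 95% interval 0.46 to 2.59, adjusted p = 0.0771), and 6 of the old kidneys lay above the highest young one. Iglc2 passed without young replicate 4 (adjusted p = 0.0406) or nicotinamide replicate 7 (0.0358), and without the 4 libraries that stood apart (0.0483). It also passed in DESeq2 (adjusted p = 0.0461), in the edgeR fit of young and old kidneys alone (0.00997) and with non-robust dispersions (0.0396).

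Jchain, the joining chain of polymeric IgM and IgA, had 20.1, 43.9 and 63.1 CPM in the lowest, median and highest young kidney. Old kidneys held 63.1, 78.6 and 174 CPM, so the lowest old kidney met the highest young one, and the other 7 old kidneys lay above it. Nicotinamide kidneys held 8.71, 35.3 and 148 CPM. The difference with age was 1.10 (SE 0.48, 95% interval 0.10 to 2.10, edgeR adjusted p = 0.191) and did not pass over all genes. It passed in limma-voom (adjusted p = 0.0384) and in the fit of young and old kidneys alone (0.0381).

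**Figure D2:**
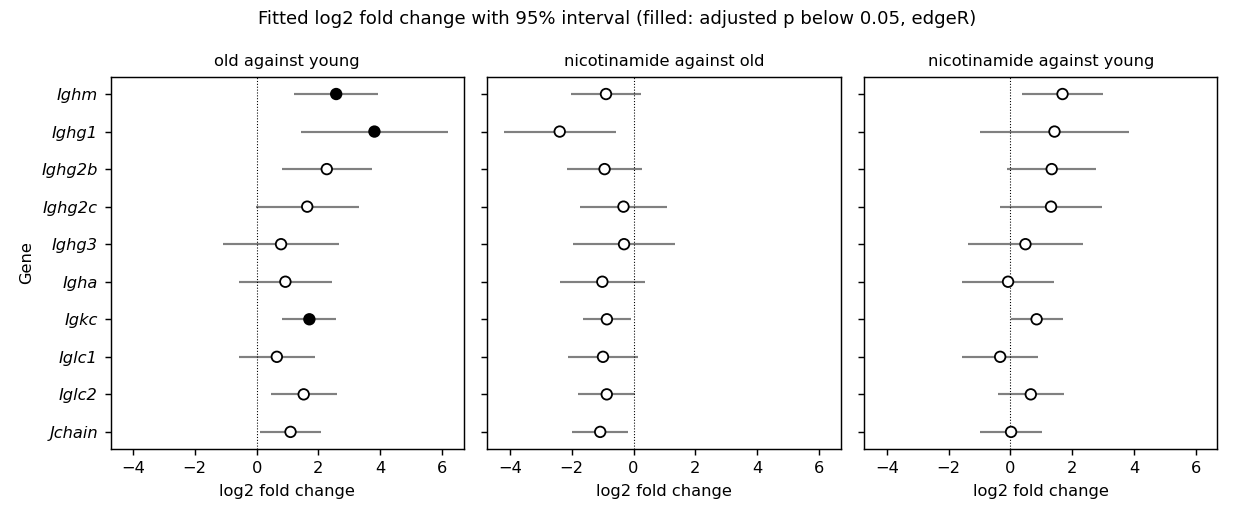
Fitted log2 fold change of each gene with its 95% interval in the 3 comparisons, with filled points where the edgeR adjusted p was below 0.05. In old against young all 10 points lie right of 0 and 3 are filled, and in nicotinamide against old all 10 lie left of 0 and none is filled.

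The comparison of old kidneys with and without nicotinamide asks whether the supplement went with other levels at the same age. In edgeR 0 of 10 genes passed, as did 0 of 10 in DESeq2 and in limma-voom, and 0.0272% of all genes tested passed in edgeR (4 of 14683), 0.0136% upward and 0.0136% downward. At an unadjusted p below 0.05 the count was 3 of 10 members, beside 907 of all genes tested (6.18%). All 10 fold changes were negative, with a median log2 fold change of −0.91, beside 0.01 over all genes. This comparison shares its old kidneys with that of old and young, so a low or high old group moves both, and the sign of one is no check of the other.

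Ighg1 had the largest difference with nicotinamide, at −2.39 on the log2 scale (SE 0.87, 95% interval −4.21 to −0.57, edgeR adjusted p = 0.682). For Jchain it was −1.08 (SE 0.43, 95% interval −1.98 to −0.18, edgeR adjusted p = 0.709), and 7 of 8 nicotinamide kidneys lay below the lowest old one, replicate 2 being the exception at 148 CPM. For Igkc it was −0.86 (SE 0.37, 95% interval −1.63 to −0.09, edgeR adjusted p = 0.747), with 6 of 8 nicotinamide kidneys below the lowest old one. These intervals are not adjusted for the number of genes. Igha differed by −1.01 (SE 0.66, 95% interval −2.39 to 0.37, adjusted p = 0.869). In 5 of 8 nicotinamide kidneys Igha lay below the lowest young kidney, while replicate 2 held 1442 CPM. Without replicate 2 the difference of Igha was −2.10 (adjusted p = 0.368) and that of Jchain −1.69 (0.135). Ighm differed by −0.89 (95% interval −2.02 to 0.24), Ighg2b by −0.94 (−2.14 to 0.27), Ighg2c by −0.32 (−1.73 to 1.08) and Ighg3 by −0.31 (−1.94 to 1.33). Intervals of this width include both no difference and a fall of more than 2-fold for each of these 4 heavy chains.

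Against young kidneys, the nicotinamide kidneys gave 0 of 10 past the threshold in edgeR, where 8.70% of all genes passed (4.73% upward and 3.96% downward), and 2 of 10 at an unadjusted p below 0.05, near the 21.9% of all genes. Of the 10 fold changes 8 were positive, with a median of 0.75 beside 0.02 over all genes. Ighm was highest at 1.69 (SE 0.63, 95% interval 0.38 to 2.99, adjusted p = 0.106) and passed in DESeq2 (adjusted p = 0.0432) and limma-voom (0.0309). Igkc differed by 0.85 (adjusted p = 0.225), with 5 of 8 nicotinamide kidneys above the highest young one. Igha (−0.08, 95% interval −1.56 to 1.41) and Jchain (0.02, 95% interval −0.97 to 1.01) had fold changes near 0 with intervals of about 2-fold or more each way. Without nicotinamide replicate 2 they were −1.18 (adjusted p = 0.220) and −0.61 (0.354). The libraries of this comparison also serve in the other 2.

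The make-up of the heavy chain counts was described per kidney as the share of IgM (Ighm), IgG (the 4 Ighg genes) and IgA (Igha). The IgA share was 64.2%, 73.5% and 98.1% in the lowest, median and highest young kidney, 11%, 67.4% and 86.1% in old, and 17.1%, 38.1% and 81.7% with nicotinamide. The IgM share was 1.32%, 15.6% and 22% in young, 11.4%, 19.8% and 65.9% in old, and 9.76%, 43.4% and 68.7% in nicotinamide kidneys. IgA was the leading class in 6 of 6 young kidneys, 5 of 8 old and 3 of 8 nicotinamide kidneys, and IgM led in the others. In old replicate 7, IgM held 65.9% (95% exact Clopper-Pearson interval 64.7% to 67.1%) and IgA 11% (10.2% to 11.8%), while in old replicate 4 IgA held 86.1% (85.2% to 86.9%). These intervals cover counting error only. The IgG share overlapped between groups, with medians of 8.40%, 14.1% and 15.1% in young, old and nicotinamide kidneys. Shares were not tested between groups.

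**Figure D3:**
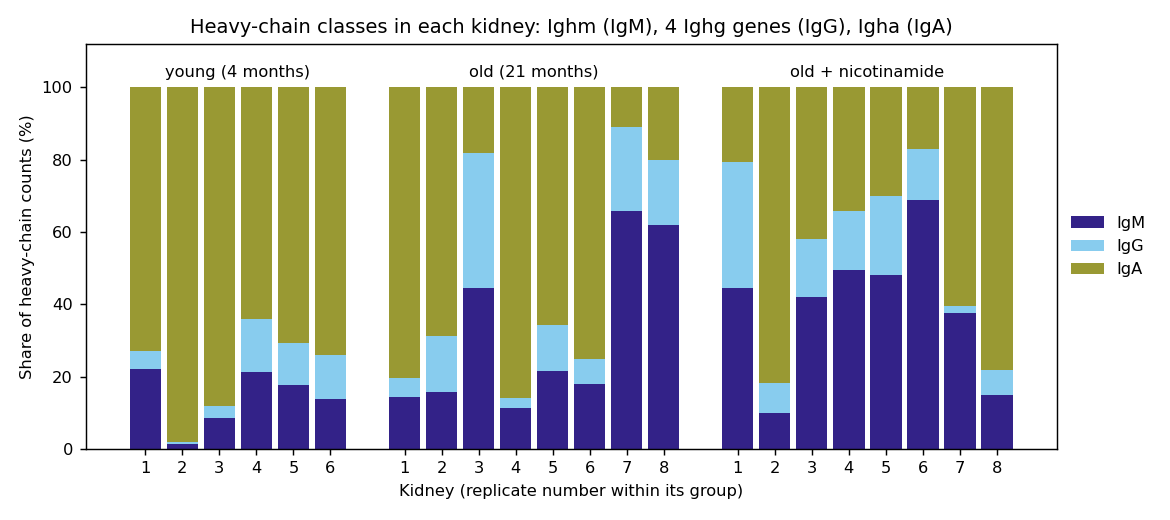
Share of IgM, IgG and IgA among the heavy chain counts of each kidney in percent, with 1 stacked bar per kidney adding to 100%. IgA fills at least 64.2% of every young bar, while old replicates 3, 7 and 8 and 5 nicotinamide kidneys are led by IgM.

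Within IgG, the leading gene was Ighg2b in 3 and Ighg2c in 3 of 6 young kidneys. In old kidneys Ighg2b led in 5, Ighg1 in 2 and Ighg2c in 1, and in nicotinamide kidneys Ighg2b led in 3 and Ighg2c in 5. The Ighg1 share of IgG counts had medians of 13.0%, 17.8% and 7.76% in young, old and nicotinamide kidneys, and reached 64.6% in an old kidney, against a highest value of 33.3% in young and 18.8% with nicotinamide. The lambda share of light chain counts stayed low in each group, with medians of 2.13%, 1.62% and 1.32% and a highest value of 5.21%. Jchain counts per 100 counts of Ighm and Igha ran from 8.50 to 15.2 in young kidneys, from 7.38 to 14.2 in old ones and from 6.21 to 11.5 with nicotinamide, so this ratio varied over a narrower range of folds than the level of Jchain did in each group.

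The spread of the members between kidneys of a group was wide. The biological coefficient of variation that edgeR fitted was 1.28 for Ighg1, above 99.9% of the tested genes, 0.854 for Igha, 0.730 for Ighm and 0.584 for Jchain, and lowest for Igkc at 0.496, above 83.1% of the tested genes. Many pairs of members also varied together. Correlations were computed between all 45 pairs over the 22 kidneys, on log2 (CPM + 0.5) centred on each group's mean, with permutation p-values adjusted over the 45 pairs, and 42 were positive, with a median r of 0.53. The adjusted p of Pearson's r was below 0.05 in 29 pairs, and those of both Pearson's r and Spearman's rho in 18. Igha had r of −0.25 to 0.13 with Ighm and the 4 Ighg genes. Ighg2b and Ighg2c had the highest Pearson's r, at 0.86 (permutation p = 1e-05, adjusted 0.000225; Spearman's rho 0.80, adjusted 0.00135), and r was 0.78 without the 2 kidneys farthest from the median of Ighg2b. A permutation p of 1e-05 is the smallest these permutations can give. These 2 genes are also the near copies shown above, and the part of shared reads in their correlation was not tested.

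The joining chain varied with Igkc (r 0.85, permutation p = 3e-05, adjusted 0.00045; rho 0.77, adjusted 0.00279; r 0.72 without the 2 kidneys farthest in Igkc). In each pair the 2 kidneys left out were farthest from the median of 1 gene, so kidneys far out in the other gene may remain. The joining chain also varied with Igha (r 0.72, permutation p = 0.00023, adjusted 0.00148; rho 0.65, adjusted 0.0072; r 0.60 without the 2 farthest in Igha). With Ighm it had r 0.29 (permutation adjusted p = 0.251; rho 0.27, adjusted 0.316). Ighm went with Ighg2b (r 0.84, permutation p = 1e-05, adjusted 0.000225; rho 0.79, adjusted 0.00135; r 0.77 without the 2 farthest in Ighm). For Ighm and Igha r was −0.25 and rho −0.35 (permutation adjusted p = 0.299 and 0.175), with r of −0.62 in the 8 old kidneys, −0.30 in the 6 young and 0.06 in the 8 nicotinamide kidneys. All points share their library's total, and no difference between these correlations was tested.

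**Figure D4:**
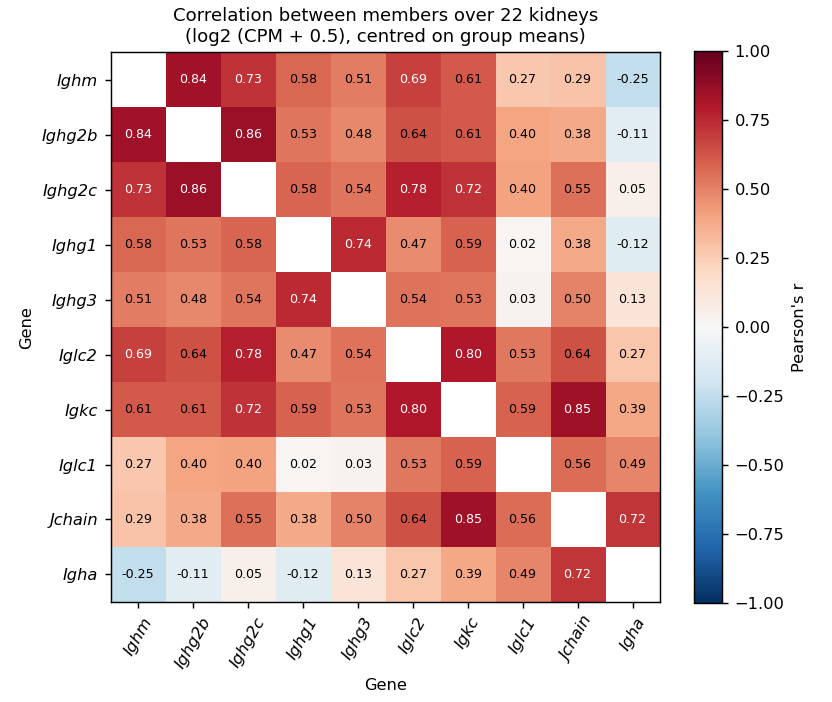
Pearson's r between each pair of genes over the 22 kidneys on log2 (CPM + 0.5) after centring on group means, with colour and number giving r. Ighg2b and Ighg2c reach 0.86, Igkc and Jchain 0.85, and the lowest value is that of Ighm and Igha at −0.25.

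Other genes of the antibody system were taken by list. Among the other constant chains, Ighd, the heavy chain of IgD on resting B cells, had 13 counts over the young, 107 over the old and 51 over the nicotinamide kidneys (2.21 with age, SE 0.93, adjusted p = 0.152). It passed without young replicate 6 (adjusted p = 0.0285), which held 8 of the 13 young counts, and without the 4 libraries that stood apart (0.0249). Ighe, the heavy chain of IgE, had 27 counts in 3 old kidneys and 0 in the other groups. Iglc3 had 130, 221 and 174 counts in young, old and nicotinamide kidneys, and Iglc4 had 0.

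Of 16 listed genes of the B cell receptor and B cell identity, 8 passed the filter on low counts and were tested. Of these, 3 rose with age and none fell, with a median log2 fold change of 1.32. A gene low in young kidneys, such as Fcrla (mean 0.183 CPM), could pass the filter only through groups where it was higher. Such genes can tilt the count and median upward, here and in the other lists. Of all genes tested, 3.90% rose and 3.15% fell. In limma-voom 1 passed, Ebf1, with Bank1 at an adjusted p of 0.0762 and Fcrla at 0.129, and with the replicate block Fcrla was lost (0.123). Ebf1, a transcription factor of early B cells that stromal cells express too, rose from 42.8 ± 7.95 CPM (SD, n = 6) to 60.5 ± 6.98 CPM (SD, n = 8), by 0.50 ± 0.13 (SE; edgeR adjusted p = 0.0109). Bank1, a B cell adaptor, rose by 2.38 ± 0.69 (adjusted p = 0.0268), and missed the threshold without young replicate 4, 5 or 6 or old replicate 1 (adjusted p 0.0601 to 0.0684). Fcrla, an Fc receptor-like protein of B cells, rose by 3.08 ± 0.95 (adjusted p = 0.0383), and missed it without young replicate 1, 2, 3, 4 or 5 (0.0567 to 0.103). Ms4a1, which encodes CD20, had 1.84 ± 1.70 and 1.65 ± 2.25 CPM in young and old kidneys (−0.10 ± 0.90, adjusted p = 0.970). Cd79a, a signalling chain of the B cell receptor, had 0, 7 and 14 counts over the young, old and nicotinamide kidneys, where 0 allows up to 0.0848 CPM over the young group. In nicotinamide against old the median of the 8 tested genes was −0.96.

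Of 17 tested genes of the plasma cell programme, 5 rose with age and none fell, with a median of 0.15, beside 3.90% of all genes tested that rose and 3.15% that fell. In limma-voom 1 passed, Slamf7, with Irf4 (adjusted p = 0.0501), Sdc1 (0.0537), Mzb1 (0.0698) and Tnfrsf13b (0.132) lost. Without the 4 libraries that stood apart 3 passed, with Irf4 (0.0713) and Sdc1 (0.119) lost, and with the replicate block 3 passed, with Mzb1 (0.0511) and Sdc1 (0.0602) lost. Slamf7, a surface receptor of plasma cells that other immune cells carry too, rose from 3.44 ± 0.903 to 12.5 ± 3.67 CPM (1.86 ± 0.27, edgeR adjusted p = 1.42e-05). Mzb1, a chaperone of antibody assembly, rose from 0.755 ± 0.545 to 3.00 ± 1.67 CPM (1.98 ± 0.54, adjusted p = 0.0191; 0.0546 without young replicate 2). Irf4, a transcription factor of the step to plasma cells, rose by 2.50 ± 0.75 (adjusted p = 0.0345), and missed the threshold also without young replicate 3, 4, 5 or 6 or old replicate 1 or 2 (0.0556 to 0.0954). Tnfrsf13b, a receptor for the survival factors BAFF and APRIL, rose by 2.35 ± 0.67 (adjusted p = 0.0235), and missed it without young replicate 1, 2, 4 or 5 or old replicate 3 (0.0540 to 0.0588). Sdc1, the plasma cell marker syndecan-1 that epithelia make too, rose from 4.85 ± 0.990 to 8.79 ± 2.0 CPM (0.84 ± 0.24, adjusted p = 0.0245), and missed it also without young replicate 2 or 6 or old replicate 7 (0.0579 to 0.0675). Tnfrsf17, the plasma cell receptor BCMA, had 7, 13 and 4 counts over the 3 groups. Xbp1, the factor of the secretory programme, had 84.3 ± 19.1 CPM in young and 82.5 ± 13.6 CPM in old kidneys (−0.03 ± 0.13, adjusted p = 0.926).

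The counts of the next 3 lists stand beside 3.90% of all genes tested that rose with age and 3.15% that fell. Among genes of class switching and the germinal centre 1 of 9 tested genes rose with age, Icosl, a ligand that stimulates helper T cells (1.11 ± 0.29, edgeR adjusted p = 0.0129). Of 7 tested signals of plasma cell survival and homing, 3 rose and 1 fell. Tnfsf13b, which encodes the survival factor BAFF, rose from 1.45 ± 0.949 to 5.67 ± 1.47 CPM (1.90 ± 0.39, adjusted p = 0.00156), Vcam1, an adhesion molecule, from 13.8 ± 3.88 to 40.9 ± 12.8 CPM (1.57 ± 0.20, adjusted p = 1.45e-05), and Itga4, a chain of its receptor, by 1.27 ± 0.28 (adjusted p = 0.00364). Ccl28, a chemokine that draws IgA plasma cells to mucosae, fell by 1.16 on the log2 scale, from 16.1 ± 7.66 to 7.22 ± 1.42 CPM (SE 0.27, adjusted p = 0.00569). Of 9 tested antibody receptors and transporters 2 rose, Fcer1g, the signalling chain of activating Fc receptors (1.31 ± 0.18, adjusted p = 7.84e-06), and Fcgr4, an IgG receptor of myeloid cells (1.30 ± 0.39, adjusted p = 0.0354). Fcgr4 missed the threshold without young replicate 1, 3, 4 or 5 or old replicate 2, 5 or 7 (0.0615 to 0.0938), in limma-voom (0.171) and with the replicate block (0.0595). In DESeq2 4 of the 9 receptors and transporters rose, and with the replicate block 5 of the 7 survival and homing signals. Pigr, which carries polymeric IgA and IgM across epithelia, had 69.3 ± 24.3 CPM in young and 97.5 ± 9.68 CPM in old kidneys (0.50 ± 0.16, adjusted p = 0.0667; 0.0159 without young replicate 4 and 0.0358 without young replicate 6). It passed in DESeq2 (0.0172), in limma-voom (0.0142), with no filter (0.0395) and with non-robust dispersions (0.0332). In nicotinamide kidneys Pigr had 110 ± 18.1 CPM, and against young kidneys it passed (0.68 ± 0.16, edgeR adjusted p = 0.0106). Fcgrt, the neonatal Fc receptor that recycles IgG, had 138 ± 8.10 and 133 ± 18.5 CPM (−0.05 ± 0.09, adjusted p = 0.788).

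Markers of other cells moved with age too, and their part in the levels of the members was not tested. Over all genes tested, 3.90% were higher and 3.15% lower in old kidneys. Summed macrophage markers ran from 137 to 167 CPM in young kidneys, from 241 to 451 CPM in old ones and from 268 to 534 CPM with nicotinamide, with 9 of 11 genes higher in old. Summed T cell markers were 8.41 to 23.9, 19.9 to 47.9 and 18.8 to 230 CPM, with 2 of 10 tested genes higher in old, Cd2 and Cd4, and 0 in limma-voom. Lymphoid aggregate markers summed to 2.66 to 9.14, 6.20 to 22.9 and 3.69 to 36.1 CPM. Of 5 tested genes 1 was higher in old, Ccr7. The chemokine Cxcl13 of this list had 0.661 ± 0.630 CPM in young and 5.24 ± 4.57 CPM in old kidneys (2.98 ± 0.96, edgeR adjusted p = 0.0694). In nicotinamide against young Cxcl13 passed (3.53 ± 0.96, edgeR adjusted p = 0.0264), and it was not alone. There 10 of 11 macrophage markers rose, as did 5 of 9 antibody receptors and transporters. So did 5 of 7 survival and homing signals, Cxcl13 among them, beside 4.73% of all genes tested. Of the plasma cell programme 2 of 17 rose there, and of the B cell list 1 of 8. The chemokines Ccl19 and Ccl21a stood at 0, and whether their reads were lost in mapping was not tested. Blood markers overlapped (803 to 1467, 952 to 1597 and 956 to 3126 CPM), with 0 of 7 genes past the threshold, as did adipocyte markers (75.8 to 156, 72.4 to 280 and 74.8 to 808 CPM), with 0 of 7. In nicotinamide against old, 0 of the 101 tested genes of these lists and of those of the antibody system passed in edgeR, DESeq2 or limma-voom. An unadjusted edgeR p below 0.05 was found for 11 of the 101, beside 6.18% of all genes tested.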

How the data were processed

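Gene expression was measured by 3′ end sequencing of kidney RNA (QuantSeq 3′ mRNA-Seq V2 FWD) in 22 libraries, 1 per mouse. The deposited table holds unnormalized read counts for mouse Ensembl genes, made by the authors with STAR and HTSeq per the submitters' processing notes. The strand setting, versions and treatment of duplicates: not given in the sources used here. Coordinates are left out, because the notes name the human build GRCh38 for identifiers that are all from mouse. Symbols, chromosomes and strands came from GENCODE M21 (55141 identifiers matched; the rest held 0.0148% of counts). The 5 summary entries that name no gene were left out; they held 19.1% to 24.7% (reads in no gene) and 0.512% to 0.569% (ambiguous reads) of all counts in the table. No column was without a sample.

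The filterByExpr function of edgeR 4.0.16, set to a minimum count of 10, a minimum total of 15 and a smallest group of 6, kept 14683 genes with 99.75% of counts. The 22 libraries entered 1 robust quasi-likelihood fit by group with TMM scaling, with two-sided contrasts and Benjamini-Hochberg adjustment over all genes tested. SEs were derived from the log2 fold change and its F statistic. Adjusted p-values without a named tool are edgeR's. The scripts were tested on simulated data. Alternatives used DESeq2 1.42.0, limma 3.58.1 (voom), no filter, other samples or a replicate block. Equal replicate numbers did not pair the libraries. Within groups, the chi-square of 71 library pairs was 5.50 to 39.3 times its degrees of freedom, above counting error. Correlations used 1e+05 permutations in SciPy 1.17.1, and shares used exact Clopper-Pearson intervals (95%), which cover counting error only, as does the limit of 3 counts given for a count of 0. PCR copies may add to that error.

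The members, the lists and the alternatives were chosen with earlier results of these data known. Named were all members, listed genes of the antibody system past the threshold (at most the 6 with the lowest p per list and comparison), and Sdc1, Tnfrsf17, Cd79a, Ms4a1, Pigr, Fcgrt and Ighd whatever their values; 1 further gene of this rule is not reported here. Ighe, Iglc3, Iglc4, Xbp1, Derl3, Prdm1, C1qa, Cd3e, Adipoq, Cd2, Cd4, Ccr7, Cxcl13, Ccl19 and Ccl21a were named after their values were seen.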

Additional observations from a re-analysis of the deposited data

Results flagged for a closer look

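Single kidneys that lay far from the rest of their group were looked for with Dixon's test in 132 groups of values, 44 quantities in 3 groups, and 20 groups held such a kidney. Chance alone flags about 1 group in 20 where values are normally distributed. That was not checked for these values, which were not put on a log scale, so the count of 20 is no measure of an excess. Nicotinamide replicate 2 was the highest of its group in Igha (1442 CPM, next 339), Jchain (148 CPM, next 43.6), Ighg3 (7.77 CPM, next 2.26), Irf4 (7.29 CPM, next 2.59) and Slamf7 (17.1 CPM, next 10.8). Old replicate 1 stood out in Igha (1698 CPM, next 715) and Jchain (174 CPM, next 114). Nicotinamide replicate 6 stood out in Ighm (497 CPM, next 201) and Ighd (3.72 CPM, next 1.17).

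Young replicate 6, the shallowest library, was highest in Ighg1 (16.9 CPM, next 3.78), Ighd (2.55 CPM, next 0.470) and Tnfrsf13b (2.23 CPM, next 0.627). Young replicate 4 was highest in Iglc1 (41.2 CPM, next 14.2). Old replicate 3 was highest in Ighg2c (111 CPM, next 54.3) and Cd79a (0.771 CPM, next 0.305), and nicotinamide replicate 3 in Cd79a (1.10 CPM, next 0.507). Old replicate 2 was highest in Irf4 (6.53 CPM, next 3.36) and Vcam1 (70.7 CPM, next 45.0). Old replicate 4 was lowest in Tnfsf13b (2.33 CPM, next 5.4), and nicotinamide replicate 7 highest in Fcgr4 (15.5 CPM, next 8.29).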

How the results depend on the processing

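Over 31 alternatives the 10 members gave 929 values, of which 875 kept direction and side of the threshold, 19 lost a call, 17 gained one and 18 changed sign. Members past the threshold in old against young numbered 5 in DESeq2, 5 with non-robust dispersions and 2 to 5 with each library left out in turn (5 without nicotinamide replicate 7), against 3. Equal replicate numbers did not deviate together (20 pairs, r −0.0886 to 0.0610), and no paired design is given in the labels. With the replicate number as a block 2 members passed: Ighm (adjusted p = 0.105) and Ighg1 (0.195) were lost and Iglc2 (0.0460) gained, and in 3 of 40 checks a library correlated best with its own number. In nicotinamide against young 1 member, Ighm, passed in DESeq2, limma-voom and with non-robust dispersions (adjusted p = 0.0432, 0.0309 and 0.0231). All genes past the threshold in nicotinamide against old were 10 in DESeq2, 7 with no filter, 2 with non-robust dispersions and 1 to 9 with a library left out. In nicotinamide against young they were 801 without the 4 libraries that stood apart and 835 to 1438 with a library left out, against 1277, and in old against young 668 to 1305, against 1034. The lambda share in nicotinamide kidneys was 1.68% with Iglc3 added, against 1.32%. The following changed sign, with no call in any fit. In nicotinamide against young these were Jchain in limma-voom (−0.30), with the replicate block (−0.10) and with a library left out (−0.61 to 0.18), Iglc1 with the block (0.14) and a library left out (−0.73 to 0.42), Igha without the 4 libraries (0.23) and with a library left out (−1.18 to 0.19), and Ighg3 with a library left out (−0.38 to 1.28). In nicotinamide against old these were Ighg3 without the 4 libraries (0.093) and Ighg2c with a library left out (−0.61 to 0.011). Ms4a1 in old against young gave 0.48 without the 4 libraries and −0.78 to 0.39 with a library left out. The cause was not tested. Counts of listed genes under other fits, given with the lists, were added after seeing the data. Ighg3 was filtered out of the fit of nicotinamide and young kidneys alone. Sdc1 also missed the threshold with no filter (adjusted p = 0.0521).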

Other observations

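Genes outside the immunoglobulin loci were ranked by how their level followed the summed level of the 10 members over the 22 kidneys, after centring on group means, as a description over 14683 genes. The 8 most alike were Slpi, a protease inhibitor of secretions (Pearson's r 0.77, Spearman's rho 0.76), Lyve1, a receptor of lymphatic endothelium and some macrophages (0.72 and 0.66), Nmnat1, an enzyme of NAD synthesis in the nucleus (0.71 and 0.69), Pou2af1, a B cell coactivator of immunoglobulin promoters (0.71 and 0.68), Dhx40 (0.69 and 0.62), Icmt (0.69 and 0.56), Pigl (0.67 and 0.41) and Mzb1 (0.67 and 0.72). Taking the 8 highest of 14683 genes itself selects for a high r. Lyve1 was low, with means of 0.935, 1.04 and 1.85 CPM in young, old and nicotinamide kidneys, as was Mzb1 in young kidneys (0.755 CPM). Such levels are near the 0.5 added before the log. Of the first 50 genes with no exclusion 6 were immunoglobulin genes, 5 of them members whose level is part of the sum. Within groups r was not always of the pooled size: for Pigl it was −0.66 in young, 0.37 in old and 0.94 in nicotinamide kidneys, for Icmt 0.07 in old and for Dhx40 0.28 in old kidneys. Among further plasma cell genes r was 0.47 for Irf4, 0.44 for Derl3, 0.39 for Xbp1, 0.34 for Slamf7, 0.31 for Tnfrsf13b, 0.06 for Sdc1 and −0.07 for Prdm1. The adipocyte gene Adipoq had 0.52, the macrophage gene C1qa 0.01 and the T cell gene Cd3e −0.05. The points share library and depth, and no p is given.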
